A study of Mus musculus with 4 samples.

Results

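The 32 genes described here encode members of the histone deacetylase and sirtuin families (Hdac1 to Hdac11 and Sirt1 to Sirt7), some of which act mainly on substrates other than histones. Others encode histone acetyltransferases (Ep300, Crebbp, Kat2a, Kat2b, Kat5, Kat6a, Kat6b, Kat7 and Kat8). The rest encode scaffold subunits of the complexes through which deacetylases act (Ncor1, Sin3a, Sin3b, Rcor1 and Mta2). The genes were chosen by name, as 32 of 21887 protein-coding genes of the mouse RefSeq table (GRCm38.p6, the assembly that mm10 names), and all 32 were found in it. Open chromatin was mapped by ATAC-seq, where Tn5 transposase cuts and tags accessible DNA. The cells were Gr1+CD11b+ myeloid-derived suppressor cells sorted from the ascites of tumour-bearing mice on day 14 after injection of EL4, a mouse T cell lymphoma line. The hosts were WT mice (2 libraries) or Sphk2 KO mice (2 libraries). All 4 libraries came from 20000 cells and a Tn5 reaction at 40% of the recommended enzyme, and the host strain, age and the way Sphk2 was removed are not given in the sources used here. The labels call the libraries biological replicates without tying them to animals, so any p-value measures only the spread between these libraries.

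Histone acetylation loosens chromatin and is read by bromodomain proteins. Acetyltransferases write it. It is erased by members of the zinc-dependent deacetylase family (classes I, II and IV) and of the NAD-dependent sirtuin family. The corepressors SIN3, NuRD, CoREST and NCoR bring class I deacetylases to chromatin. Sphk2 encodes sphingosine kinase 2, and nuclear sphingosine 1-phosphate made by this kinase has been described as a ligand that inhibits HDAC1 and HDAC2. Peak lists record where the genes' chromatin was open, and they measure neither RNA, protein nor enzyme activity.

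The authors' lists held 31507 and 31843 peaks for WT and, for Sphk2 KO, 20759 and 27446. They rested on 33859480, 34443062, 25877428 and 27686223 retained fragments. Depth was lowest in Sphk2 KO replicate 1, whose list was also the shortest. At Sphk2 itself a gene-end peak was found in every library, with −log10 q (the authors' peak score) of 61.6 and 73.5 for WT, and for Sphk2 KO of 28.0 and 70.5. The extent of the removed part was not known here, so the peak could not check the labels. Gene-end peaks were called at 8, 7, 7 and 8 of 10 neutrophil markers, at 6, 7, 3 and 4 of 8 monocyte markers, at 3, 7, 3 and 3 of 13 T cell markers and at 0 of 6 B cell markers in every library. Such series of 4 values give the WT libraries, replicate 1 first, and then the Sphk2 KO libraries. Ly6g and Ccr2 had no such peak in any library, and neither did the T cell genes Cd3e, Cd3g, Lck, Cd2 and Tcf7. Other T cell genes were called in every library, Cd3d with −log10 q of 124, 144, 104 and 198 and Cd5 with 24.2, 30.0, 24.0 and 37.5. More monocyte markers were thus called in WT, and more T cell markers in WT replicate 2. Of the monocyte markers, only Irf8 and Fn1 were called in both WT libraries and neither Sphk2 KO library. The T cell genes Zap70, Cd28, Bcl11b and Themis, called in WT replicate 2 alone, had weak peaks of 2.34 to 6.11. Over all protein-coding genes, 47.9%, 48.8%, 42.6% and 47.3% had a gene-end peak. The part of cell composition in the results below was not tested.

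Members with a gene-end peak, meaning a peak within 1 kb of either end of the gene, numbered 26, 27, 23 and 25 of 32 (81.2%, 84.4%, 71.9% and 78.1%). Over all protein-coding genes the shares were 47.9%, 48.8%, 42.6% and 47.3%. In all 4 libraries 23 members had such a peak, beside 41.6% of all genes. A further 2 members, Kat2a and Kat6b, had one in each WT library but not in Sphk2 KO, a pattern of 1.27% of all genes (278), and none had the reverse pattern, held by 0.101% of genes (22). Hdac8 and Sirt5 had gene-end peaks in other combinations of libraries, and Hdac4, Hdac7, Hdac9, Hdac11 and Sin3a had none. By role, the counts in the 4 libraries were 3, 4, 3 and 4 of 4 class I deacetylases, 1 of 4 class IIa deacetylases in each, 2 of 3 class IIb and IV deacetylases in each, and 7, 7, 6 and 7 of 7 sirtuins. They were 4, 4, 3 and 3 of the 4 genes of the p300/CBP and GCN5/PCAF groups, 5, 5, 4 and 4 of 5 MYST acetyltransferases, and 4 of 5 corepressors in each library. The class IIa genes thus had the fewest calls at their ends.

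The strength of a call is given by its −log10 q, the authors' score for a peak against the local background (the lowest listed was 1.30), and by its percentile among all peaks of the same library. The members' best gene-end peaks had median percentiles of 82.8, 80.8, 70.3 and 77.0, beside 79.6, 79.3, 72.5 and 77.0 over all genes with such a peak. Members were thus called more often than genes at large, while their called peaks sat near the middle of all gene-end peaks. In the highest 10% of a library's peaks lay 8, 8, 3 and 5 members (25.0%, 25.0%, 9.38% and 15.6%), beside 13.6%, 13.7%, 9.14% and 12.0% of all genes. These shares also count genes without a peak. Among called genes, they were 8 of 26, 8 of 27, 3 of 23 and 5 of 25 members. Over all called genes they were 2981 of 10487, 2996 of 10690, 2001 of 9313 and 2619 of 10342. Kat6b is absent from the Sphk2 KO counts, as its peaks there began just beyond 1 kb. Sphk2 KO replicate 1 gave the lowest percentile for 19 of the 23 members called in all libraries. The median over all genes was lowest in that library as well (72.5), and the matching share of all genes is not given here. Percentiles from lists of different lengths cannot be used to infer a change between libraries. Genotypes are therefore compared further below on regions shared by all 4 lists.

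**Figure D1:**
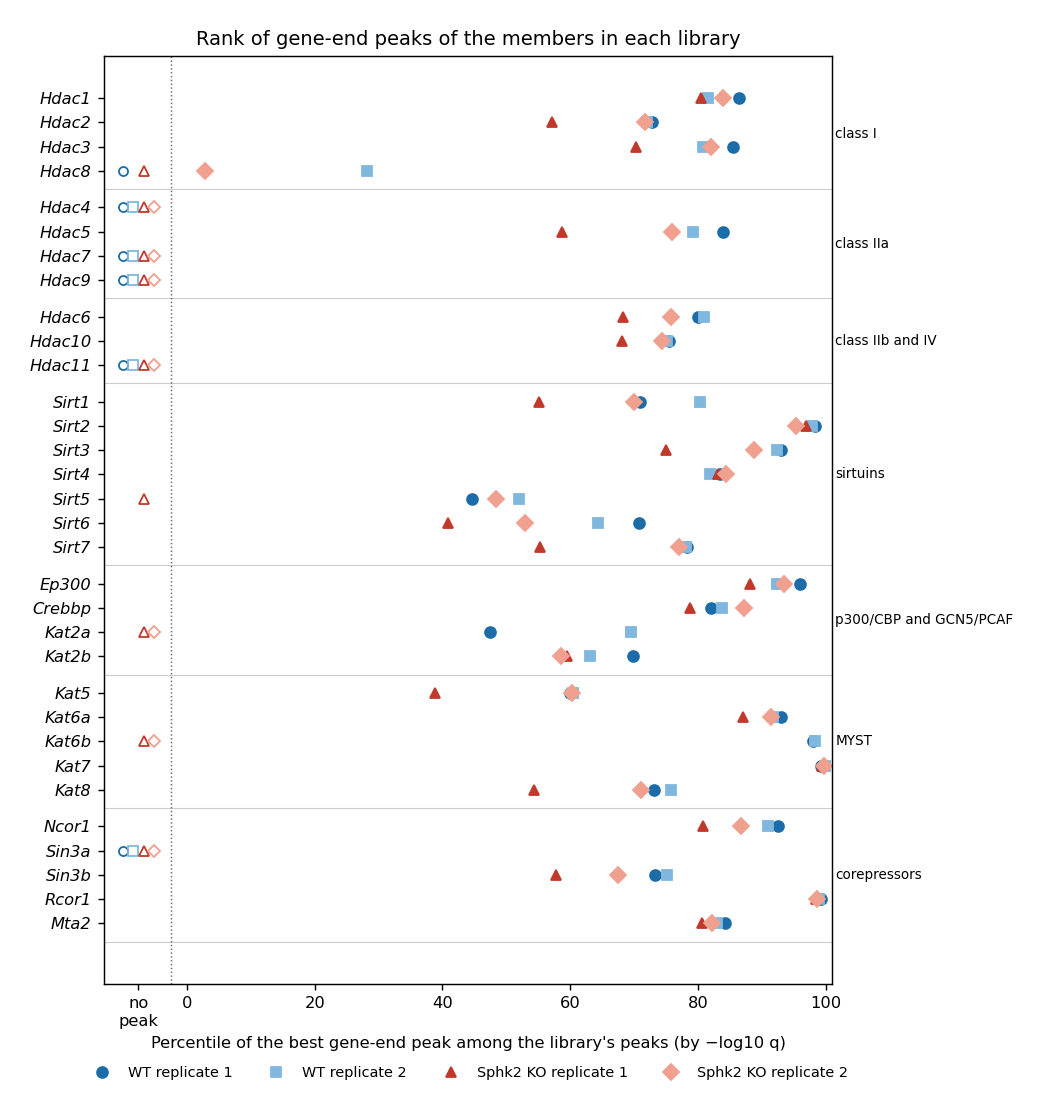
Percentile of each member's best gene-end peak among the peaks of its library, by −log10 q, with 1 symbol per library and members without a peak in the strip on the left. Kat7 and then Rcor1 lie farthest to the right in every library, and Hdac4, Hdac7, Hdac9, Hdac11 and Sin3a have only open symbols.

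The start windows of 7 members show what lies under strong, moderate and missing calls. Each runs from 250 bases before to 50 after a listed start, 5′ to 3′ on the gene's strand, from RefSeq on GRCm38.p6. Capitals mark matches, on either strand, to any of 8 short motifs: GCATGCGC for the factor NRF1, AAGATGGCG for the factor YY1, CCGGAAG for the ETS family, GGGCGG for the SP1 family, CACGTG for the E-box, CCAAT for the box of that name, TGANTCA for the AP-1 family and TGACGTCA for the cyclic AMP response element (CRE). Kat7 and Rcor1 had the highest-ranked gene-end peaks among the members, Hdac2 a moderate one, and Hdac4 a strong peak at a start inside its longest annotated extent. The Kat6b window lay just upstream of its peaks, and Hdac9 and Hdac11 had no peak within 1 kb of a listed start.
Kat7, chr11:95310197-95310496, minus strand: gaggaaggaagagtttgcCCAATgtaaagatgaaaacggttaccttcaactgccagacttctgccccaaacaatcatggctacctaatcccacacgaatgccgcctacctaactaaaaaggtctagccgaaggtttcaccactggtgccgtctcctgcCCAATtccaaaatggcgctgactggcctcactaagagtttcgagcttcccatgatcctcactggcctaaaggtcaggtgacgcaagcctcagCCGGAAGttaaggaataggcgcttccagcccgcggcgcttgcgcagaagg
Rcor1, chr12:111039117-111039416, plus strand: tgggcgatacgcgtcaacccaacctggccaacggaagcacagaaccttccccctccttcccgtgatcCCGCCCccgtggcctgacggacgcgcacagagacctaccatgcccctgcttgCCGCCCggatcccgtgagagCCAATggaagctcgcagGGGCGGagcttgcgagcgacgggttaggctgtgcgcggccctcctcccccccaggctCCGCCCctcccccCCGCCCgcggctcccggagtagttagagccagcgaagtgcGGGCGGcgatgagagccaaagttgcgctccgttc
Hdac2, chr10:36974294-36974593, plus strand: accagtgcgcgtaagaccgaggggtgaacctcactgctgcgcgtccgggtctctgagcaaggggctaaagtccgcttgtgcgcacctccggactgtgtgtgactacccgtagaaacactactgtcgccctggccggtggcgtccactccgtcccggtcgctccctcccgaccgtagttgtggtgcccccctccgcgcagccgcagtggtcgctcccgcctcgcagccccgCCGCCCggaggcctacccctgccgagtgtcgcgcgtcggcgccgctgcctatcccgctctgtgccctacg
Hdac4, chr1:92180292-92180591, minus strand: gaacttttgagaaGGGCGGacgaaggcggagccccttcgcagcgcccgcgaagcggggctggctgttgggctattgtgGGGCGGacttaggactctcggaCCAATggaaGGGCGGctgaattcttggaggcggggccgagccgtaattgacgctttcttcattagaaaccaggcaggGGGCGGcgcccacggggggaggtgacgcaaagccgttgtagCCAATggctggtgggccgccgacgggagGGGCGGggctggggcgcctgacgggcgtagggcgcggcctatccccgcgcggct
Kat6b, chr14:21499520-21499819, plus strand: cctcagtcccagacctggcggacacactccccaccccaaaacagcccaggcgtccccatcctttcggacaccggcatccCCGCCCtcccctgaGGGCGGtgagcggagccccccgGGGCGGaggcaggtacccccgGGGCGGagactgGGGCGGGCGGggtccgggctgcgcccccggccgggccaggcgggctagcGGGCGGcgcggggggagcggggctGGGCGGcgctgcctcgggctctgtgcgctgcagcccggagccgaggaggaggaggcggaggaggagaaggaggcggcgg
Hdac9, chr12:34917046-34917345, minus strand: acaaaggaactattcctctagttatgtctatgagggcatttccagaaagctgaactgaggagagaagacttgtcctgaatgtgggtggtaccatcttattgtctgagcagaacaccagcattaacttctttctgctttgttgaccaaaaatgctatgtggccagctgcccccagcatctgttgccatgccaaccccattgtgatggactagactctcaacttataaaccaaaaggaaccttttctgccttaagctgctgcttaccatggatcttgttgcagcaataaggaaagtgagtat
Hdac11, chr6:91156565-91156864, plus strand: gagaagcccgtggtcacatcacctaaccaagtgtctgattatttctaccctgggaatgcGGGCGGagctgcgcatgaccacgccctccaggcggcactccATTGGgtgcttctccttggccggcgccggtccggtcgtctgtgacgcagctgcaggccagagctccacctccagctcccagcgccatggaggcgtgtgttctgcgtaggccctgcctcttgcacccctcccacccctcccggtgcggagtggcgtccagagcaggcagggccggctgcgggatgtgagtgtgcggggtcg

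The Hdac9 window held 0 CpG dinucleotides and no motif match at 44.0% G+C, and the Hdac11 window 22 CpGs at 66.7% G+C with 1 SP1 match and 1 CCAAT match. The called windows were not alike either. Kat7 had 14 CpGs, 1 ETS match and 2 CCAAT matches at 53.0% G+C, whereas Hdac4 had 32 CpGs and 5 SP1 matches at 68.0%, and Rcor1 31 CpGs and 6 SP1 matches at 69.3%. The Kat6b window was 78.3% G+C with 8 SP1 matches, some of them overlapping, and no peak of any library reached into it.

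RefSeq start windows were used for 28 members, all but Hdac1, Hdac3, Hdac10 and Kat6a, and the shares below use the window listed first for each gene. A peak overlapped the window in all 4 libraries for 19 members (67.9%), beside 40.4% of the windows of 17492 genes. Median G+C was 59.0% in the member windows and 56.3% in all, and the median ratio of observed to expected CpG was 0.79 and 0.58. Within the members, the 19 windows called in all libraries had medians of 61.0% and 0.82, and the other 9 had 52.0% and 0.66. All windows called in every library had 62.0% and 0.82, and all windows called in none 49.7% and 0.25. Member starts that were called therefore had medians near those of called starts at large.

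An SP1 match was in 18 member windows (64.3%, beside 46.3% of all windows), a CCAAT match in 13 (46.4%, beside 39.0%) and an ETS match in 7 (25.0%, beside 11.9%). An E-box match was in 3 (10.7%, beside 7.90%), an NRF1 match in 2 (7.14%, beside 3.61%) and an AP-1 match in 1 (3.57%, beside 7.08%). The YY1 and CRE letters were in none of these 28 windows, beside 1.94% and 2.34% of all windows. All 7 windows with an ETS match were among the 19 called in every library. Over all genes, 23.1% of windows called in every library and 3.07% of windows called in none held those letters. Ncor1 held a YY1 and an ETS match in another listed window, which is not in these counts.

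Class I deacetylases are the nuclear enzymes of the SIN3, NuRD, CoREST and NCoR complexes. Hdac1 (chromosome 4, 129516104 to 129542646), a catalytic subunit of SIN3, NuRD and CoREST, had gene-end −log10 q values of 67.5, 58.2, 46.8 and 87.0, at percentiles 86.4, 81.6, 80.6 and 84.0. Its close paralog and partner in those complexes, Hdac2 (chromosome 10, 36974297 to 37001889), had 33.8, 37.3, 20.3 and 49.3, at percentiles 72.8, 72.1, 57.2 and 71.7. In every library the Hdac2 peak ranked below the Hdac1 peak. The Hdac2 peak covered the start window printed above, which held 36 CpGs and 1 SP1 match. Hdac3, the catalytic subunit of the NCoR complex, had 64.2, 56.0, 32.1 and 79.4, in a region also at an end of Rell2. Hdac8 (chromosome X, 102284638 to 102505381), which acts outside those complexes, had a weak call of 5.42 in WT replicate 2 and of 1.89 in Sphk2 KO replicate 2, and no call in the other two libraries. Hdac8 therefore differed between replicates within each genotype.

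Class IIa deacetylases shuttle between nucleus and cytoplasm and bind MEF2 factors. Hdac5 (chromosome 11, 102195747 to 102230172) was the only one of the 4 with a gene-end peak, with −log10 q of 59.4, 52.2, 21.4 and 60.1. The others, described here after their values were seen, were called elsewhere along the gene. Hdac4 (chromosome 1, 91928779 to 92195702) had its strongest region at the listed start printed above, from 92180021 to 92180999, with 229, 217, 136 and 282. These values stood at percentiles 99.8, 99.5, 99.0 and 99.6 of the libraries' peaks. Hdac7 (chromosome 15, 97792661 to 97844502) had a weaker start region, from 97830749 to 97831932, with 11.2, 20.8, 6.68 and 13.2. Hdac9 (chromosome 12, 34047580 to 34917095) had no peak at either of its 2 listed starts.

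Hdac4 carried the most regions of any member. Overlapping peaks of the 4 libraries (by 1 bp or more) were joined into regions, and 16 regions lay in the Hdac4 body extended by 10 kb. Of the 796 genes within 1.5 times its length of 266.9 kb in either direction, the median had 2 regions, and 96.5% had fewer than Hdac4. Of the 16 regions, 7 were called in all 4 libraries. Beside the start region, the strongest of these was an internal region from 92052079 to 92052865, 127.9 kb downstream of the nearest listed start, with −log10 q of 69.6, 51.2, 60.1 and 89.6. Hdac7 had 7 regions, more than 95.4% of 3523 genes of like length, and 4 of them were called in all libraries. Hdac9, the longest member at 869.5 kb, had 2, where 143 genes of like length had a median of 4. Its region from 34722806 to 34723471 had 11.2 and 16.7 in WT, no call in Sphk2 KO replicate 1 and 18.9 in Sphk2 KO replicate 2.

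**Figure D2:**
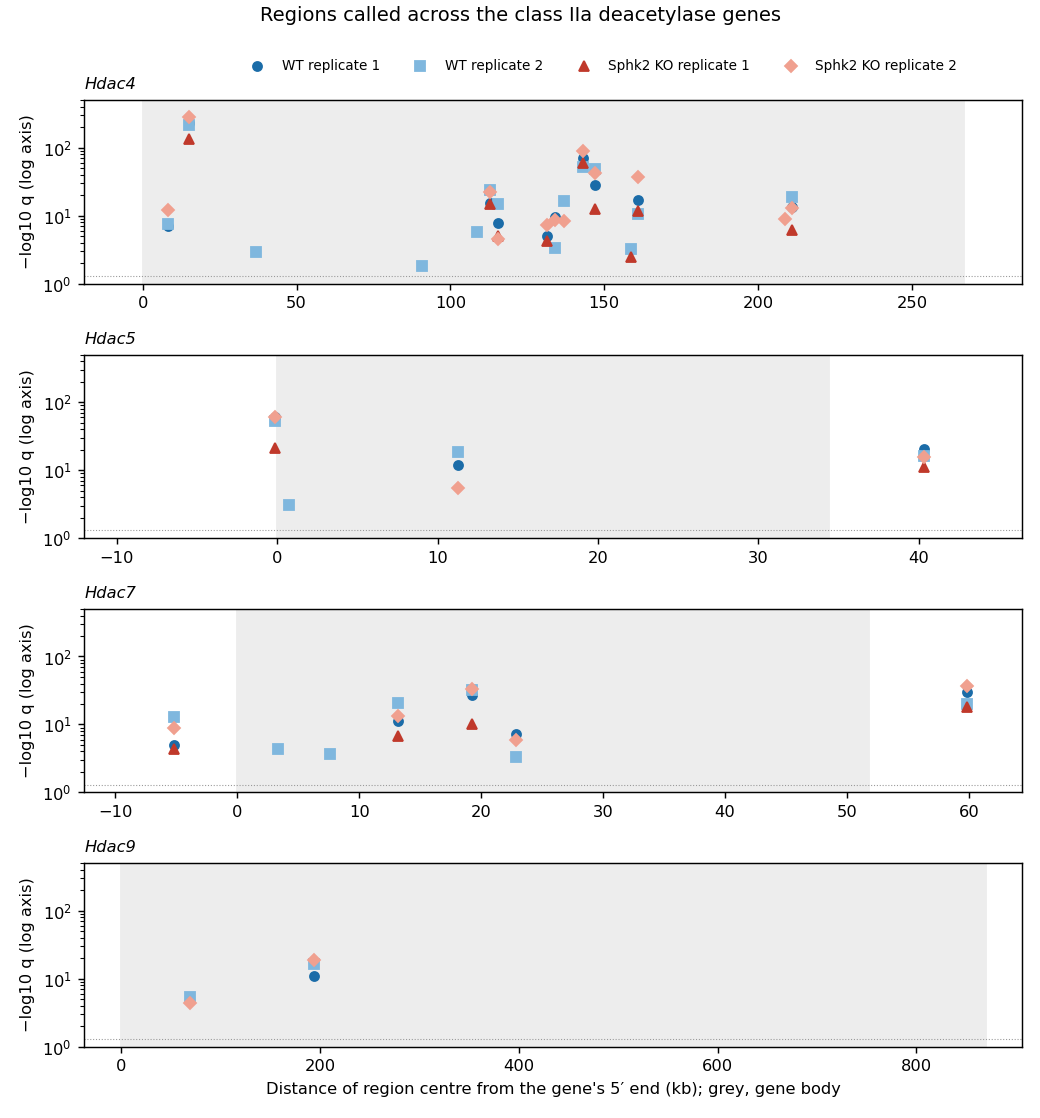
Regions called across the 4 class IIa genes, with the distance of the region's centre from the gene's 5′ end (kb) on the horizontal axis, −log10 q on a log axis and 1 symbol per library; grey marks the gene body and the dotted line the lowest score listed, 1.30. Hdac4 shows 16 regions with its strongest near a listed start, and Hdac9 shows 2 in 869.5 kb.

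Of the class IIb and IV deacetylases, Hdac6 (chromosome X, 7930116 to 7948047), a mostly cytoplasmic tubulin deacetylase, had 48.3, 56.5, 30.0 and 59.6 at its end. Hdac10 (chromosome 15, 89123303 to 89128700), a polyamine deacetylase, had 38.5, 43.3, 29.9 and 55.8. Hdac11 (chromosome 6, 91156670 to 91174692), the class IV enzyme, had no region in its body or within 10 kb in any library. It was the only member without one, while 75.2% of 4828 genes of like length had at least 1.

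Sirtuins couple deacylation to NAD. Sirt2 (chromosome 7, 28766752 to 28788665), largely cytoplasmic, had the highest-ranked gene-end peak of the family, with −log10 q of 164, 166, 110.0 and 170.0. The region of this peak also lay at an end of Nfkbib. Sirt6 (chromosome 10, 81621787 to 81627792), a chromatin-bound enzyme, had the lowest-ranked among sirtuins called in all libraries, with 30.95, 26.2, 11.3 and 21.75. Sirt2 stood at a mean percentile of 97.2 and Sirt6 at 57.2. Sirt5 (chromosome 13, 43365389 to 43395203), a mitochondrial desuccinylase, had WT values of 9.51 and 14.9, no call in Sphk2 KO replicate 1 and 17.8 in Sphk2 KO replicate 2. The missing call was thus in the shallowest library. Sirt4 (chromosome 5, 115478006 to 115490264), another mitochondrial sirtuin, had 57.6, 58.9, 51.5 and 88.9 at its upper-coordinate end, in a region from 115489228 to 115490579. Sirt7 (chromosome 11, 120618371 to 120625014), a nucleolar enzyme, had 6 regions in its body extended by 10 kb, more than 99.0% of 3300 genes of like length, and 4 of them were called in all libraries. Its start region also lay within 1 kb of an end of Mafg, and the region at its other end within 1 kb of an end of Pcyt2.

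Ep300 (chromosome 15, 81586209 to 81652077), which encodes the coactivator p300, had the strongest gene-end peak of its group, with −log10 q of 127, 105, 64.5 and 147. It was the only region in the Ep300 body extended by 10 kb. Kat2b (chromosome 17, 53566774 to 53672721), which encodes PCAF, had 29.6, 24.6, 22.0 and 27.6. Ep300 stood at a mean percentile of 92.5 and Kat2b at 62.8. Kat2a (chromosome 11, 100704746 to 100712485), which encodes GCN5, the acetyltransferase of the SAGA and ATAC complexes, had gene-end peaks of 10.7 and 33.3 in WT and none in Sphk2 KO. The peaks belonged to a region from 100702399 to 100704427, shared with the end of Dhx58, that was called in all 4 libraries, with highest values of 25.2, 33.3, 11.1 and 38.1. The nearest Sphk2 KO peaks of that region ended 1373 and 1427 bp from the gene, outside the 1 kb window. In WT replicate 2 it was 1 wide peak ending 319 bp away, with its summit at 100702681. The Sphk2 KO summits of the region lay at 100702681 and 100702678, so only the flank of the wide peak entered the 1 kb window. In WT replicate 1 a separate peak ended 336 bp away. At the listed start of Kat2a, a peak was called in WT replicate 2 alone, with 1.78.

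Among the MYST acetyltransferases, Kat7 (chromosome 11, 95271853 to 95310246), also called HBO1 and a writer of H3 and H4 acetylation, had the highest-ranked gene-end peak of all members. Its −log10 q was 196, 246, 152 and 310.5, at percentiles 99.3, 99.8, 99.5 and 99.8. Kat5 (chromosome 19, 5603014 to 5611556), the catalytic subunit of the NuA4/TIP60 complex, had the lowest of the family called in all libraries, with 18.8, 21.7, 10.6 and 29.5 within 1 kb of its ends. The region of that call also lay at an end of Rnaseh2c. A peak at a listed start of Kat5 inside the gene's extent was stronger, with 33.7, 69.5, 26.1 and 67.7. Kat8 (chromosome 7, 127912517 to 127925838), also called MOF and the writer of H4K16 acetylation, had 34.5, 44.2, 18.4 and 48.1.

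Kat6b (chromosome 14, 21499216 to 21672478), also called MORF, gave the strongest peak among those called at gene ends in WT only, with 158 and 173. The same region, from 21500087 to 21501313, was called in Sphk2 KO with 120 and 188. The peaks began 871, 989, 1054 and 1008 bp from the gene's end, on either side of the 1 kb limit. Within 1 kb of the listed starts of Kat6b, all 4 libraries had the peak. When merged regions were used in place of single peaks, a setting added after the values were seen, 0 members had a gene-end region in WT only, beside 1.22% of genes. With it, 26, 27, 25 and 27 members were called, and 25 in all libraries. At 2 kb, 0 members were in WT only as well. The Kat6b calls thus lay at the border of the window. Those of Kat2a reached closer to the gene in WT, and at 500 bp it was the 1 member still called in WT only.

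Of the corepressors, Rcor1 (chromosome 12, 111039367 to 111115902), the CoREST scaffold between LSD1 and HDAC1/2, had the highest-ranked gene-end peak, with −log10 q of 191, 195, 129 and 239.9. Sin3b (chromosome 8, 72723270 to 72758203), a SIN3 scaffold, had the lowest of those called in all libraries, with 34.7, 43.1, 20.6 and 41.05. Sin3a (chromosome 9, 57071991 to 57128368), its paralog, had no peak within 1 kb of its ends but a strong region at a listed start, from 57075381 to 57077108. There its values were 157, 131, 101 and 188. Sin3a is described after its values were seen. At the RefSeq starts the peak of Sin3a thus ranked above that of Sin3b in every library, at percentiles from 95.5 to 98.0 against 57.8 to 75.1.

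Within 1 kb of a listed start, 24, 26, 22 and 24 of 28 members had a peak (85.7%, 92.9%, 78.6% and 85.7%), beside 50.1%, 51.0%, 44.8% and 49.3% of 17492 genes. In all libraries 22 members had one, beside 44.0% of genes. Sirt4 alone had one in WT only, a pattern of 1.31% of genes, and 0 members had one in Sphk2 KO only, beside 0.0915%. The listed start of Sirt4 lies inside the gene, whose 5′ end was called in all libraries. Hdac8, Sirt5 and Kat2a were called in other combinations, and Hdac9 and Hdac11 in none.

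In the member bodies extended by 10 kb lay 103 of the series' 45299 regions, with 82, 95, 69 and 85 called in the 4 libraries. Of the 103, 62 were called in all 4 (60.2%), beside 37.5% of all regions and 48.9% of the 29351 regions within 10 kb of a protein-coding gene. The WT-only regions, called in each WT library but in no Sphk2 KO library, numbered 4 (3.88%, beside 5.43% of all regions and 5.45% of those near genes). The Sphk2 KO-only regions numbered 0, beside 0.605% and 0.620%. The remaining 37 were called in other combinations. Of the 16 regions called in 3 libraries, 13 lacked a peak only in Sphk2 KO replicate 1 (81.2%, beside 78.4% over the series). Another 1 lacked it only in WT replicate 1 (10.2% over the series), 2 only in WT replicate 2 (5.30%) and 0 only in Sphk2 KO replicate 2 (6.07%). Of the 15 called in 1 library, 1 was in WT replicate 1, 9 in WT replicate 2, 3 in Sphk2 KO replicate 1 and 2 in Sphk2 KO replicate 2, beside 35.3%, 34.6%, 9.11% and 21.0% of such regions over the series. Without Sphk2 KO replicate 2 the WT-only count was 17, since regions missing in Sphk2 KO replicate 1 alone then counted. Without WT replicate 1 it was 13, and without WT replicate 2 it was 7. Shares over the series with a library left out are not given, so these counts have no background here.

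**Figure D3:**
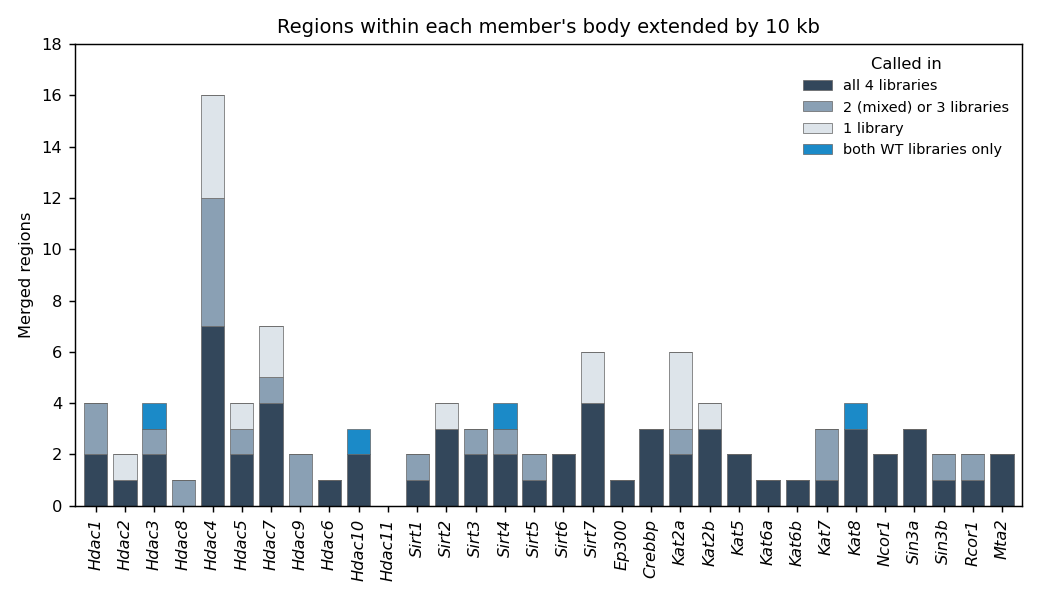
Number of merged regions within each member's body extended by 10 kb, stacked by the libraries in which they were called. Hdac4 has 16 regions, Hdac11 has none, and the both-WT-only segments are 1 region each at Hdac3, Hdac10, Sirt4 and Kat8.

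At listed starts 24 of 29 member regions were called in all 4 libraries (82.8%), beside 79.9% of the regions so placed at any protein-coding gene. At other gene ends this was 10 of 11 (90.9%, beside 67.4%), inside the genes 11 of 32 (34.4%, beside 30.4%) and outside them 17 of 31 (54.8%, beside 54.4%). For genes at large as for the members, the share was highest at listed starts and other ends and lowest inside the gene. At the end of another gene lay 29 of the 103 regions, so these cannot be given to the member alone.

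None of the 4 WT-only regions was at the end of its member gene, and 2 lay at another gene's end. The Hdac10 region (chromosome 15, 89131475 to 89131960) was 2775 bp outside the gene at an end of Mapk12, a p38 kinase gene, with −log10 q of 20.6 and 33.9. The Kat8 region (chromosome 7, 127903974 to 127904292) was 8225 bp outside at an end of Bckdk, with 9.51 and 6.82. The Hdac3 region was 8819 bp outside the gene, with 10.5 and 13.9. The Sirt4 region (chromosome 5, 115484319 to 115484627) was at a listed start inside the gene, with 9.04 and 15.1. The Hdac10 region exceeded the gene-end peaks of Kat5 and Sirt5 in both WT libraries. It stayed below the peak at a listed start of Kat5, with 33.7 and 69.5 in those libraries. Sirt4 is on the minus strand, so its upper-coordinate end is its 5′ end, and that end was called in every library.

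To compare genotypes on lists of equal length, the 16973 regions called in all 4 libraries were ranked within each library by −log10 q. Of the 62 member regions among them, 10 ranked higher in both WT libraries than in both Sphk2 KO libraries (16.1%, beside 21.3% of all shared regions), and 14 ranked higher in both Sphk2 KO libraries (22.6%, beside 22.1%). The ranks of the other 38 overlapped between genotypes. The members' shares were close to those over all shared regions. Without 1 library in turn, these counts lay between 20 and 26 for WT and between 21 and 26 for Sphk2 KO, as a lone library separates more easily. Shares over all shared regions with a library left out are not given here.

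Several members had a rank order of this kind at their start or end. The start regions of Sirt3, Sirt6, Hdac5, Hdac6, Ncor1 and Sin3b ranked higher in both WT libraries. Start regions of Crebbp, Mta2, Sirt7 and Sin3a, and the gene-end regions of Hdac10 and Sirt4, ranked higher in both Sphk2 KO libraries. For Sin3a this was the first of its 2 start regions along the chromosome. For Crebbp it was the region from 4213799 to 4214492, while the ranks of its other start region overlapped between genotypes. The start regions of Sirt3 (Psmd13), Ncor1 (Pigl), Mta2 (Eml3) and Sirt7 (Mafg) also lay at an end of the gene in brackets. So did a gene-end region of Hdac10 (Tubgcp6). The gap was often narrow. The Hdac6 start had percentiles among the shared regions of 63.0 and 64.3 for WT, and for Sphk2 KO of 61.3 and 60.9. That of Sirt6, which also lies at an end of Ankrd24, had 46.35 and 34.5 for WT, against 28.6 and 25.85 for Sphk2 KO. The gene-end regions of Hdac1 and Hdac2 were not among the separated ones.

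**Figure D4:**
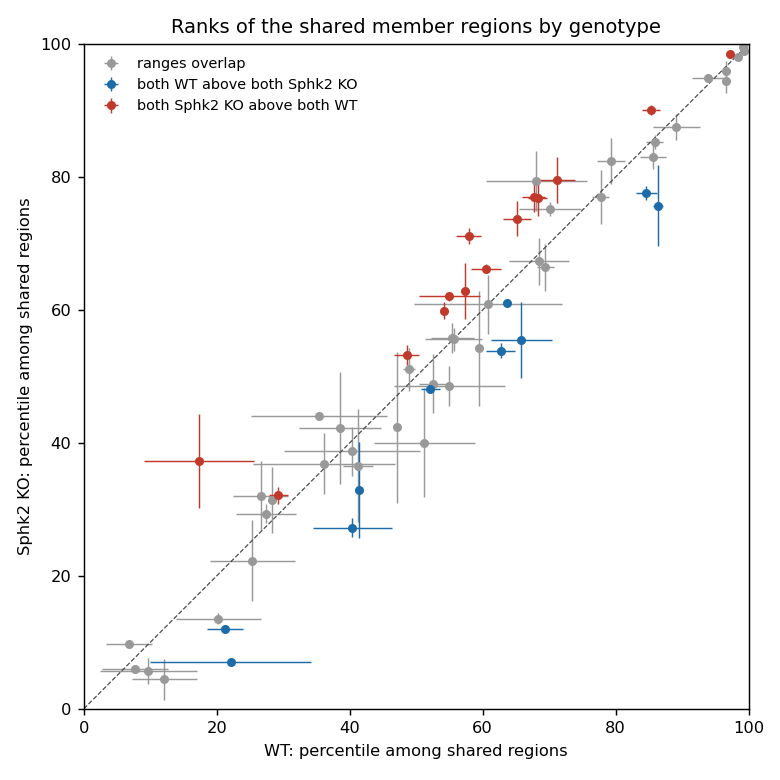
Percentile of the 62 shared member regions among 16973 regions called in all 4 libraries, WT on the horizontal and Sphk2 KO on the vertical axis, with points at the mean of 2 libraries and bars from the lower to the higher library. The points follow the diagonal, with 10 regions higher in both WT libraries, 14 higher in both Sphk2 KO libraries and 38 with overlapping ranges.

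A test of the same ranks, turned into normal scores and fitted with limma, called 0 of 16973 shared regions in either direction at a Benjamini-Hochberg adjusted p under 0.05 (0% called, smallest adjusted p = 0.103). At an unadjusted p under 0.05 there were 985 regions higher in Sphk2 KO and 981 higher in WT, 11.6% of all. Ranked by fold enrichment instead, limma called 5 regions higher in Sphk2 KO and 7 higher in WT, none of them at a member. Among the 62 member regions, 0 were called and 1 was at an unadjusted p under 0.05 (1.61%). This was the internal Hdac4 region from 92034292 to 92034927, with −log10 q of 17.1, 10.6, 11.9 and 37.2. Its score was higher in Sphk2 KO by 0.667 (SE 0.267, limma adjusted p = 0.424). The median difference, Sphk2 KO minus WT, was -0.02 over member regions and 0.003 over all. The members' median turned positive without Sphk2 KO replicate 1 (0.058) and without WT replicate 1 (0.028). The gene-end region of Hdac1 differed by 0.146 (SE 0.164, limma adjusted p = 0.784) and that of Hdac2 by 0.056 (SE 0.151, adjusted p = 0.923). With 1 library left out, the Hdac1 difference ranged from 0.011 (without WT replicate 2) to 0.278 (without WT replicate 1), and the Hdac2 difference from -0.025 (without Sphk2 KO replicate 2) to 0.121 (without Sphk2 KO replicate 1). With 2 libraries per genotype these tests showed no difference at the members, which does not show that the genotypes were alike.

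The other subunits and readers of the same machinery were taken from 7 lists of 65 genes, all found in the gene table. A gene-end peak was called at 59, 60, 55 and 58 of them, and at 55 in all 4 libraries. Over all protein-coding genes the shares were 47.9%, 48.8%, 42.6% and 47.3%, and 41.6% in all 4 libraries. All 9 SIN3 subunits had one in every library. The counts were 9, 9, 8 and 8 of 10 for NuRD, 6, 6, 5 and 6 of 6 for CoREST, and 4, 4, 3 and 4 of 4 for NCoR/SMRT. They were 24, 25, 23 and 24 of 26 for acetyltransferase partners and 6 of 7 for bromodomain readers in each library. The MEF2 partners of class IIa deacetylases had 1 of 3 in each library, Mef2d, while Mef2a and Mef2c had none. Mta1, a NuRD subunit and paralog of Mta2, was the only gene of these lists called in WT only, with weak peaks of 3.89 and 1.98. In Sphk2 KO only, 0 genes were called. Over all protein-coding genes these patterns were held by 1.27% and 0.101%, so 1 WT-only gene among 65 is near the share over all genes. Mef2d was named after its values were seen.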

How the data were processed

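The submitters' processing notes name cutadapt, BWA, MACS2 and mm10. Per the file headers, MACS 2.1.1.20160309 called peaks per library from paired-end fragments, with no control, at a q-value of 0.05, an effective genome size of 1.87e+09, a local background of 10 kb and 1 fragment kept per position. A shift of fragment ends for Tn5 is not given in the sources. The deposited lists give pileup (a coverage signal), −log10 p and −log10 q, and fold enrichment (a ratio over background) as the authors' caller computed them. These depend on depth, so they only ordered or filtered peaks of 1 list. Read counts were not used, and a region without a call may be open below the threshold.

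Gene bodies came from the RefSeq table, which has no strand, so both gene ends were used with a window of 1 kb. Starts came from the RefSeq promoter table, which lists 28 members. Peaks sharing 1 bp were merged. Ranks among shared regions were converted to normal scores and tested with limma 3.58.1 (R 4.3.3), Benjamini-Hochberg over all shared regions. The script was tested on simulated data. Members and lists were chosen with earlier results of these data known. Values in every library are given for Hdac1 and Hdac2, members called at gene ends in 1 to 3 libraries, members with a genotype-only region, and the best and worst ranked of each role. Alternatives are given in the closing section.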

Additional observations from a re-analysis of the deposited data

How the results depend on the processing

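Under the alternatives, 180 recomputed values were counted as the same, 48 as moved and 1 as reversed. Median percentiles were the same when within the spread between replicates, and counts when within 1.5 times of their main value. The rank score differences of Hdac1 and Hdac2 were the same when their sign and their call at an adjusted p under 0.05 held, whatever their size. The median percentile of member gene-end peaks moved to 75.0, 73.8 and 62.9 in WT replicates 1 and 2 and Sphk2 KO replicate 1 at a −log10 q of at least 5. In the WT replicates it was 73.9 and 70.6 with equally long lists, 84.5 and 82.5 ranked by fold enrichment and 81.1 and 78.0 by pileup, and 81.0 in WT replicate 1 at annotated starts. Members with a gene-end peak in WT only numbered 1 with windows around summits and at 500 bp (Kat2a), and 0 at 2 kb and with merged regions. With windows around summits, the Kat2a call in WT replicate 2 was its peak of 1.78 at the listed start. The summit window of its wide peak of 33.3 did not reach within 1 kb of the gene. At annotated starts the 1 member in WT only was another gene, Sirt4. Bodies without extension held 67 regions, 41 in all libraries and 1 in WT only, and a 5 kb extension left 2 in WT only. Equally long lists gave 1 Sphk2 KO-only region. With 1 library left out, regions in WT only ranged from 4 to 17, in Sphk2 KO only from 1 to 3, and shared regions higher in WT from 20 to 26 and in Sphk2 KO from 21 to 26. Shares over all regions are not given for these settings. The rank score difference of Hdac1 ranged from 0.011 to 0.278. That of Hdac2 ranged from -0.025 to 0.121, and reversed to -0.025 without Sphk2 KO replicate 2. Ranked by fold enrichment, limma called 5 regions higher in Sphk2 KO and 7 in WT, none at members.

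The replicate numbers of WT and Sphk2 KO share only a number, and deviations of same-numbered libraries had a Pearson r of 0.013 over 16973 regions. With a replicate block limma called 0 shared regions in either direction and 0 member regions, the smallest adjusted p being 0.234. Depth limits the comparison: Sphk2 KO replicate 1 had 25877428 retained fragments, and a weak region can be missing from its list without being closed.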
